A study of Mus musculus with 14 samples.

Results

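Expression of 9 synaptic adhesion genes in the mouse cortex was compared between libraries labelled control and libraries labelled mutant for Lhx2. The genes were the leucine-rich repeat transmembrane proteins Lrrtm1, Lrrtm2, Lrrtm3 and Lrrtm4, the neuroligins Nlgn1, Nlgn2 and Nlgn3, and the neurexins Nrxn2 and Nrxn3. The 9 genes were taken by symbol from 2 count tables of 25229 and 55353 gene symbols, and were chosen with earlier results of these data known. All 9 were in both tables and all 9 had enough counts to be tested in both. The study sequenced polyadenylated RNA of layer II/III of the cerebral cortex, microdissected at postnatal day 5, and asked how losing Lhx2 affects the growth of dendrites. Lhx2 encodes a homeodomain protein with LIM domains that regulates transcription in the developing cortex.

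Every animal carried Lhx2lox/lox, the allele that Cre recombinase can delete, so the controls carry it too. In the progenitor experiment a plasmid was electroporated in utero into cortical progenitors at E15.5, either EGFP alone (control, n = 4 libraries) or Cre-EGFP (labelled mutant, n = 4). In the postmitotic experiment all brains received EGFP alone, and the genotype was Lhx2lox/lox in controls (n = 3) and NexCre/+; Lhx2lox/lox in the libraries labelled mutant (n = 3). NexCre sits at the Neurod6 locus and acts in young excitatory neurons throughout the cortex, not only in electroporated cells, whereas Cre-EGFP reaches only the progenitors that took up the plasmid. The dissected layer also holds cells that were not electroporated, and the labels name no sorting step. The labels do not state whether libraries of a group stem from different animals, so the p-values measure only how far these libraries differ, which may be technical.

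Neurexins sit on the presynaptic terminal and are held across the cleft by several families of postsynaptic partners. Neuroligins and LRRTMs are 2 such families, and both bind neurexins. LRRTMs act at excitatory synapses, where they help to anchor glutamate receptors. Neuroligin 1 is found mainly at excitatory synapses, neuroligin 2 at inhibitory synapses and neuroligin 3 at both. LRRTM3 and LRRTM4 also bind the heparan sulfate chains carried by neurexins and by glypicans.

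Lrrtm3 was the member called lower in both experiments. It lies on chromosome 10 from 63928472 to 64090277 on the minus strand (GRCm38/mm10, GENCODE M21), inside Ctnna3, which runs on the opposite strand. Lrrtm4, called lower in the progenitor experiment and lower without a call in the postmitotic one, lies on chromosome 6 from 80018877 to 80810143 on the plus strand. The stretches just upstream of both starts are shown because these are the members whose levels moved. They come from the RefSeq promoter table (GRCm38.p6) and run 5′ to 3′ on the gene's strand. Each was cut at the annotated GENCODE start, so that no base of that gene's own annotated transcripts is shown. The Lrrtm3 stretch still lies inside Ctnna3. The first covers chr10:64090278-64090505 and the second chr6:80018627-80018876. Capitals mark CANNTG, the class of sites that basic helix-loop-helix factors bind.
Lrrtm3: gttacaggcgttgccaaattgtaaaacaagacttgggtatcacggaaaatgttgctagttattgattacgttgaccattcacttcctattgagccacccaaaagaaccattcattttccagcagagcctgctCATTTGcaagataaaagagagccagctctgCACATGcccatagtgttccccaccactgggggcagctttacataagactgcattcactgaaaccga
Lrrtm4: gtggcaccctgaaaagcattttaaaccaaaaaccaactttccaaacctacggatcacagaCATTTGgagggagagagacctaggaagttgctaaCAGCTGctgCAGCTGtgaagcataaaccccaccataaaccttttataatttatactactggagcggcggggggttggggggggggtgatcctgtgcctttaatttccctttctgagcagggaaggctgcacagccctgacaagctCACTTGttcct
The Lrrtm3 stretch of 228 bases held 2 such sites, and the Lrrtm4 stretch of 250 bases held 4. CANNTG, which reads the same on both strands, was present in 66.2% of all 32851 RefSeq windows of 250 bases, and in 7 of the 10 windows of the 6 members that the table holds. TAATTA, a homeodomain core and also a palindrome, was in 4.84% of all windows and in 0 of these 10. These letter matches are descriptions of the windows only.

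Lhx2 itself did not show the deletion. Among progenitor libraries it stood at 131, 120, 139 and 120 CPM (the count scaled to the library size) in controls 1 to 4 and at 127, 114, 140 and 137 CPM in libraries 1 to 4 labelled mutant. Those groups overlapped, and the log2 fold change was 0.02 ± 0.07 (SE, adjusted p = 0.847, edgeR's quasi-likelihood test). Among postmitotic libraries it stood at 146, 150 and 143 CPM in controls and at 171, 182 and 184 CPM in libraries labelled mutant, a rise of 0.29 ± 0.06 on the log2 scale (adjusted p = 0.0276). Only the omission of mutant 1 kept that call, and omitting any other postmitotic library ended it (adjusted p as high as 0.184). Counts over the whole gene cannot show whether the floxed part was removed, so directions below compare libraries by their labels. Neurod6, whose locus carries the NexCre allele, fell by 0.61 ± 0.11 where that allele is labelled present (adjusted p = 0.0135), although the call was lost without control 1 (adjusted p = 0.0569) or control 2 (adjusted p = 0.0800).

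Progenitor libraries held 22677019 to 29497595 counts, with all 4 controls deeper than all 4 libraries labelled mutant, and postmitotic libraries held 21605777 to 25891416. The summed level of 4 genes of the Y chromosome was above 1 CPM in 3 of 4 progenitor libraries labelled mutant but in 0 of their 4 controls. It was above 1 CPM in 1 of 3 postmitotic libraries labelled mutant and in 2 of their 3 controls. Mutant 3 of the progenitor experiment combined Y-linked RNA (99.8 CPM) with Xist (557 CPM). Markers of excitatory neurons summed to 1689 to 1939 CPM in progenitor controls and to 1422 to 1534 CPM in libraries labelled mutant, and 2 of the 6 rose while 2 fell. The same sum overlapped in the postmitotic experiment (1372 to 1462 against 1423 to 1448 CPM), although again 2 rose (Tbr1 and Neurod2) and 2 fell (Camk2a and Neurod6). There the sums of 9 deep-layer and subplate markers (245 to 259 against 263 to 338 CPM), 8 astrocyte markers (541 to 624 against 472 to 538 CPM) and 9 microglia markers (53.9 to 56.5 against 43.7 to 52.4 CPM) did not overlap between control and labelled mutant. The other marker sums, for upper layers, interneurons, the oligodendrocyte lineage, vessels and cycling progenitors, overlapped in both experiments. Single markers in them were called all the same: 3 upper-layer markers rose in the progenitor experiment, and 1 rose (Lhx2) and 2 fell (Cux1 and Rorb) in the postmitotic one. Of 6 cycling markers tested 3 rose in the progenitor experiment (Cenpf, Top2a and Mki67), where 3 of 8 astrocyte, 2 of 9 microglia, 2 of 9 deep-layer and 2 of 10 interneuron markers fell, and 2 of 8 oligodendrocyte and 1 of 8 vessel markers rose. In the postmitotic experiment 2 of 9 deep-layer markers rose. For comparison, 23.4% of all tested genes were called in the progenitor experiment and 1.96% in the postmitotic one. Progenitor shares called of microglia and deep-layer (22.2% each), interneuron (20%), oligodendrocyte (25%) and vessel markers (12.5%) were near or below 23.4%. Excitatory neuron (66.7%), cycling (50%), upper-layer and astrocyte markers (37.5% each) were above it. Groups of single genes did not overlap for 27.0% (progenitor) and 16.4% (postmitotic) of all tested genes. No marker was at 0 in all libraries of an experiment. In these bulk samples fewer cells of a type and less RNA per cell cannot be told apart.

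In the progenitor experiment 2 of the 9 genes passed the threshold of an adjusted p under 0.05, Lrrtm3 and Lrrtm4, both lower in the libraries labelled mutant. Of all 15295 genes tested there, 23.4% passed and 11.4% were called lower. Of the 9, 1 passed in the postmitotic experiment (Lrrtm3, again lower), where 1.96% of 17775 genes passed and 1.06% were called lower. The median log2 fold change of the 4 LRRTMs was -0.47 for the progenitor and -0.31 for the postmitotic comparison, against 0.0040 and -0.0022 for all tested genes. The postmitotic median does not stand for the whole family. It lies between Lrrtm1 (-0.02) and Lrrtm4 (-0.60), with Lrrtm3 at -0.64 and Lrrtm2 at 0.23. No neuroligin and neither neurexin passed in either experiment.

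**Figure D1:**
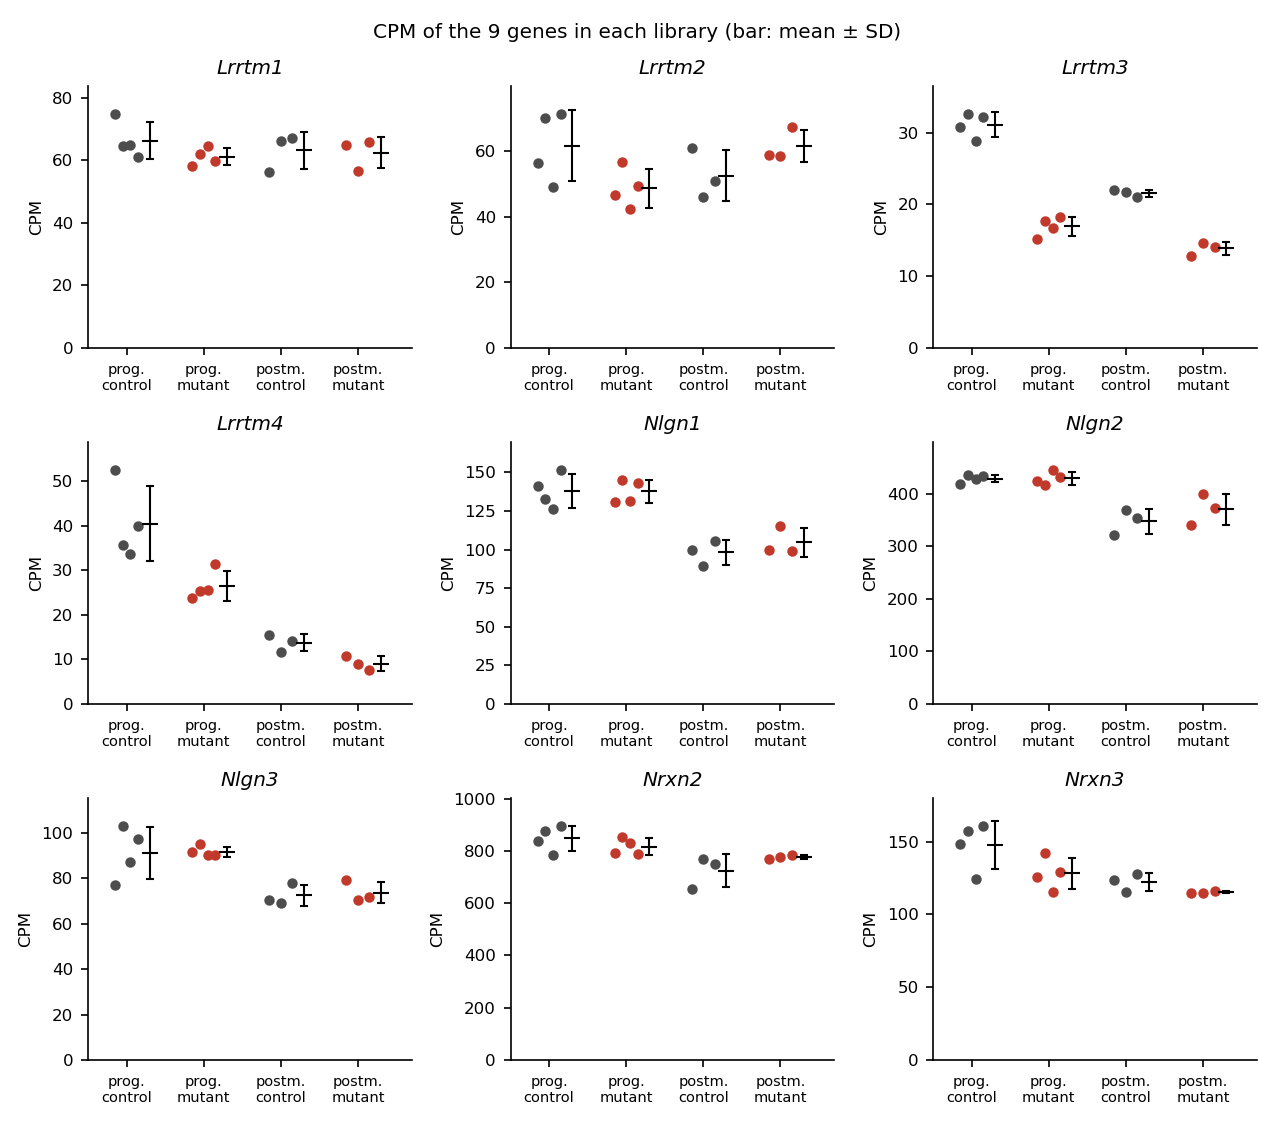
CPM (linear axis from 0) of the 9 genes in each of the 14 libraries, with the mean and SD of each group as a bar; prog. is the progenitor and postm. the postmitotic experiment, controls in grey and libraries labelled mutant in red. Lrrtm3 is lower in every library labelled mutant than in every control of its experiment (15.1 to 18.2 against 28.8 to 32.6 CPM, and 12.9 to 14.6 against 21.05 to 22.0 CPM), while the neuroligin groups overlap.

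Among the LRRTMs, Lrrtm3 showed the clearest difference. It stood at 30.8, 32.6, 28.8 and 32.2 CPM in progenitor controls 1 to 4 (757, 854, 762 and 936 counts) and at 15.1, 17.7, 16.7 and 18.2 CPM in libraries 1 to 4 labelled mutant (348, 410, 403 and 421 counts). The highest library labelled mutant was thus well under the lowest control. The means were 31.1 ± 1.72 and 16.9 ± 1.34 CPM (SD, n = 4 each). Their log2 fold change was -0.88 ± 0.07 (SE, 95% bounds -1.04 to -0.72). The level thus fell by 45.5%. The adjusted p was 3.32e-05, which placed Lrrtm3 at rank 33 of the 15295 genes. Postmitotic libraries showed the same order. Lrrtm3 stood at 22.0, 21.7 and 21.05 CPM in their controls (555, 549 and 455 counts) and at 12.9, 14.6 and 14.1 CPM in libraries labelled mutant (320, 372 and 338 counts). Again the groups were far apart, with little spread within each. The means were 21.6 ± 0.492 and 13.9 ± 0.906 CPM (SD, n = 3 each). Their log2 fold change was -0.64 ± 0.10 (95% bounds -0.85 to -0.42, adjusted p = 0.00409, rank 96 of 17775), so that the level fell by 35.7%. The difference between the experiments, the postmitotic minus the progenitor log2 fold change, was 0.24 ± 0.11 (95% bounds -0.0021 to 0.48) and did not pass (adjusted p = 0.219). With Y-linked CPM as a covariate the progenitor value was -1.04, and without progenitor library 3 labelled mutant it was -0.87. Neither fit can separate sex from label. All the progenitor controls stayed under 1 CPM of Y-linked RNA, and library 1 was the only one labelled mutant that did. The value with the covariate therefore rests largely on that library, and whether sex has a part in the fall was not tested. The part of the excitatory neuron, deep-layer, astrocyte and microglia markers in these results was not tested.

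Lrrtm4, which binds heparan sulfate and is best known from dentate granule cells, was lower by a like amount in both experiments but passed in the progenitor one. It stood at 52.5, 35.8, 33.6 and 39.9 CPM in progenitor controls and at 23.9, 25.3, 25.6 and 31.5 CPM in libraries labelled mutant. Control 1 was the highest library, and even the lowest control lay above the highest library labelled mutant. The means were 40.4 ± 8.44 and 26.6 ± 3.38 CPM, the log2 fold change was -0.61 ± 0.14 (95% bounds -0.93 to -0.28) and the adjusted p was 0.0153, so that the level fell by 34.3%. This call was lost with Y-linked CPM as a covariate, where the value was -0.77 (adjusted p = 0.0923, the highest over its alternatives, from 0.000164). Among postmitotic libraries Lrrtm4 stood at 15.51, 11.6 and 14.2 CPM in controls and at 10.7, 8.97 and 7.56 CPM in libraries labelled mutant, again without overlap. That log2 fold change of -0.60 ± 0.15 (95% bounds -0.92 to -0.28) missed the threshold with an adjusted p of 0.0642. Over its alternatives the adjusted p ran from 0.00217 to 0.251 and passed in 4 of 16, one of them without postmitotic library 1 labelled mutant (log2 fold change -0.74, adjusted p = 0.0372). The difference between the experiments was 0.0063 ± 0.24 (95% bounds -0.50 to 0.51), an interval too wide to tell whether the size was equal. Lrrtm3 and Lrrtm4 were the members whose groups did not overlap, in both experiments with the lower values under the mutant label. Among all tested genes 27.0% did not overlap in the progenitor experiment (13.3% lower) and 16.4% in the postmitotic one (8.44% lower).

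Lrrtm2, a neurexin partner that takes part in holding AMPA receptors at the synapse, had log2 fold changes of opposite sign in the 2 experiments and passed in neither. It lies on chromosome 18 from 35209003 to 35215024 on the minus strand. In the progenitor experiment it stood at 56.4, 70.0, 49.0 and 71.3 CPM in controls and at 46.5, 56.5, 42.4 and 49.3 CPM in libraries labelled mutant, with a log2 fold change of -0.34 ± 0.13 (95% bounds -0.63 to -0.05, adjusted p = 0.0856). The groups overlapped because controls 1 and 3 were low. Without control 3 the value was -0.44 and passed (adjusted p = 0.0171), and over the alternatives the adjusted p ran from 0.0103 to 0.263. Among postmitotic libraries it stood at 60.9, 45.9 and 50.8 CPM in controls and at 58.8, 58.4 and 67.2 CPM in libraries labelled mutant, a log2 fold change of 0.23 ± 0.10 (95% bounds 0.01 to 0.45, adjusted p = 0.420). The difference between the experiments was 0.57 ± 0.19 (95% bounds 0.16 to 0.98), with an unadjusted p of 0.0104 and an adjusted p of 0.0908. It passed without progenitor control 3 (0.67, adjusted p = 0.0217) and, over all alternatives, the adjusted p ran from 0.0217 to 0.229. Of the 9 genes 0 passed the test of the difference with edgeR, where 6.94% of 15643 genes did. Lrrtm2 was the 1 gene with an unadjusted p under 0.05, and it was the 1 gene called by DESeq2, while limma-voom called 0.

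Lrrtm1, the most abundant LRRTM, differed little. It lies on chromosome 6 from 77242689 to 77257791 on the plus strand. It stood at 74.8, 64.4, 64.8 and 61.1 CPM in progenitor controls and at 58.2, 62.0, 64.4 and 59.8 CPM in libraries labelled mutant, a log2 fold change of -0.12 ± 0.07 (95% bounds -0.26 to 0.03, adjusted p = 0.224). The postmitotic libraries held it at 56.4, 66.3 and 67.0 CPM in controls and at 65.0, 56.6 and 65.7 CPM in libraries labelled mutant (-0.02 ± 0.09, 95% bounds -0.21 to 0.17, adjusted p = 0.963). The groups overlapped in both experiments, and the bounds leave room for a fall of at most 0.26 on the log2 scale.

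The share of Lrrtm3 in the summed LRRTM level was lower in every library labelled mutant than in every control of its experiment. Levels per length were compared as CPM per kilobase of exon. Lrrtm3 made up 15.9% ± 0.930 of the summed LRRTM level in progenitor controls and 10.9% ± 0.456 in libraries labelled mutant (SD, n = 4), and 13.8% ± 0.593 against 9.22% ± 1.005 in the postmitotic experiment (SD, n = 3). Lrrtm1 made up 47.6% ± 3.38 in progenitor controls and 55.2% ± 2.49 in libraries labelled mutant, but its postmitotic shares of 56.5% ± 4.77 and 57.9% ± 1.74 overlapped. Lrrtm2 held 22.3% ± 3.61 against 22.1% ± 2.18 and 23.7% ± 3.65 against 28.7% ± 1.41, overlapping in both experiments. Lrrtm4 held 14.2% ± 2.05 against 11.8% ± 1.31, with overlap, and 6.08% ± 0.877 against 4.18% ± 0.801, without. The summed level of the 4 genes was 46.0 ± 3.30 CPM per kilobase in progenitor controls (41.7 to 49.8) and 36.5 ± 1.61 in libraries labelled mutant (34.4 to 38.1), without overlap. The postmitotic sums overlapped, at 36.9 ± 0.789 and 35.5 ± 2.08 CPM per kilobase. These shares have no test of their own.

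**Figure D2:**
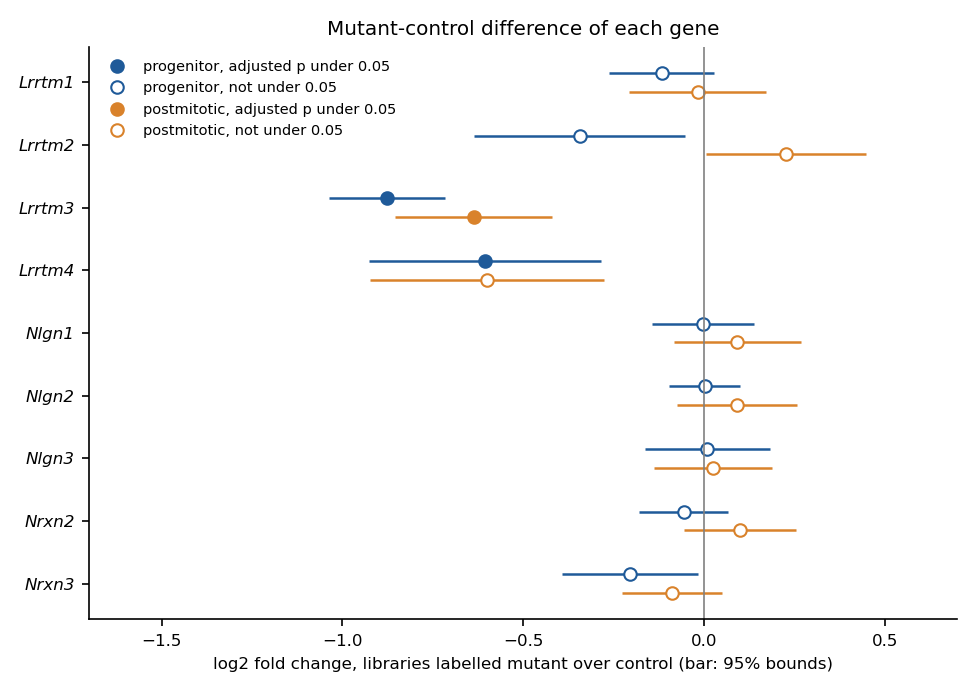
Log2 fold change of each gene, libraries labelled mutant over control, with 95% bounds as bars; blue is the progenitor and orange the postmitotic experiment, and filled points have an adjusted p under 0.05. Lrrtm3 is filled in both (-0.88 and -0.64) and Lrrtm4 in the progenitor experiment (-0.61), while the neuroligins lie within 0.10 of 0.

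The neuroligins did not differ beyond their spread in either experiment. Nlgn1, on chromosome 3 from 25426215 to 26332460 (minus strand), stood at 141, 133, 126 and 151 CPM in progenitor controls and at 131, 145, 131 and 143 CPM in libraries labelled mutant. The groups overlapped fully, the means were 137.9 ± 10.9 and 137.7 ± 7.59 CPM, and the 95% bounds of the log2 fold change were -0.14 to 0.14 (adjusted p = 0.984). Among postmitotic libraries Nlgn1 stood at 99.6, 89.5 and 106 CPM against 99.7, 115 and 98.96 CPM (0.09 ± 0.08, 95% bounds -0.08 to 0.27, adjusted p = 0.736). Nlgn2, the neuroligin of inhibitory synapses, on chromosome 11 from 69823122 to 69837784 (minus strand), was the most abundant member per length. It stood at 419, 435, 429 and 434 CPM in progenitor controls and at 424, 418, 445 and 432 CPM in libraries labelled mutant. This was the tightest pair of groups, with 95% bounds of 0.935-fold to 1.07-fold. Its postmitotic values were 322, 368 and 354 CPM in controls against 340, 399 and 374 CPM (0.09 ± 0.08, 95% bounds -0.08 to 0.26, adjusted p = 0.724).

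Nlgn3, the X-linked neuroligin (chromosome X, 101299168 to 101325963, plus strand), stood at 77.0, 103, 87.3 and 97.4 CPM in progenitor controls and at 91.8, 94.9, 90.5 and 90.1 CPM in libraries labelled mutant. The controls spread wider than the libraries labelled mutant and enclosed them (0.01 ± 0.08, 95% bounds -0.16 to 0.18, adjusted p = 0.946). Its postmitotic values were 70.3, 69.3 and 77.9 CPM against 79.1, 70.3 and 72.0 CPM (0.03 ± 0.08, 95% bounds -0.14 to 0.19, adjusted p = 0.941). The make-up of the family was steady as well: Nlgn2 held 78.7% ± 1.06 of the summed neuroligin level per length in progenitor controls and 78.6% ± 0.961 in libraries labelled mutant, and 79.9% ± 1.72 against 80.2% ± 1.36 in the postmitotic experiment. A p above the threshold does not show equal levels, and the bounds give the sizes these libraries can still hold.

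The neurexins are the presynaptic side of these pairs. Nrxn2, on chromosome 19 from 6418731 to 6544169 (plus strand), stood at 837, 874, 784 and 895 CPM in progenitor controls and at 790, 854, 831 and 786 CPM in libraries labelled mutant (-0.06 ± 0.06, 95% bounds -0.18 to 0.07, adjusted p = 0.508). The postmitotic libraries held it at 652, 769 and 751 CPM in controls and at 768, 776 and 783 CPM in libraries labelled mutant (0.10 ± 0.07, 95% bounds -0.05 to 0.25, adjusted p = 0.665). Control 1 was the low library there, and the groups overlapped only narrowly. Nrxn3, on chromosome 12 from 88722876 to 90334935 (plus strand), stood at 148, 157, 124 and 161 CPM in progenitor controls and at 126, 142, 116 and 129 CPM in libraries labelled mutant. Control 3 was the one control among the libraries labelled mutant. The log2 fold change was -0.20 ± 0.09 (95% bounds -0.39 to -0.02) and did not pass with an adjusted p of 0.105, but without control 3 it was -0.28 and passed (adjusted p = 0.0152). Over its alternatives the adjusted p ran from 0.0152 to 0.314. Postmitotic libraries held Nrxn3 at 124, 116 and 128 CPM against 115, 115 and 116 CPM (-0.09 ± 0.06, 95% bounds -0.23 to 0.05, adjusted p = 0.669). Each neurexin makes long alpha and short beta transcripts from separate promoters, and the gene-level counts do not tell these apart.

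The order of the levels per length in controls was much the same in both experiments. In progenitor controls Nlgn2 was highest at 74.2 ± 1.30 CPM per kilobase, followed by Nrxn2 at 61.4 ± 3.51 and Lrrtm1 at 21.9 ± 1.94. Nrxn3 (11.7 ± 1.31), Nlgn1 (10.3 ± 0.812), Lrrtm2 (10.2 ± 1.79) and Nlgn3 (9.84 ± 1.24) came next, and each overlapped its neighbour. Lrrtm3 (7.31 ± 0.404) and Lrrtm4 (6.58 ± 1.37) were lowest and overlapped. In postmitotic controls Nlgn2 (60.2 ± 4.13) and Nrxn2 (52.4 ± 4.55) overlapped at the top, and Lrrtm1 stood alone at 20.8 ± 1.96. Nrxn3 (9.72 ± 0.496), Lrrtm2 (8.72 ± 1.28), Nlgn3 (7.82 ± 0.508) and Nlgn1 (7.32 ± 0.612) again overlapped in a chain. Lrrtm3 (5.08 ± 0.116) and Lrrtm4 (2.24 ± 0.325) were lowest, here without overlap. The 2 members that fell in the progenitor experiment were thus those with the lowest levels per length. The tables were counted separately, so levels set side by side between experiments carry no test.

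**Figure D3:**
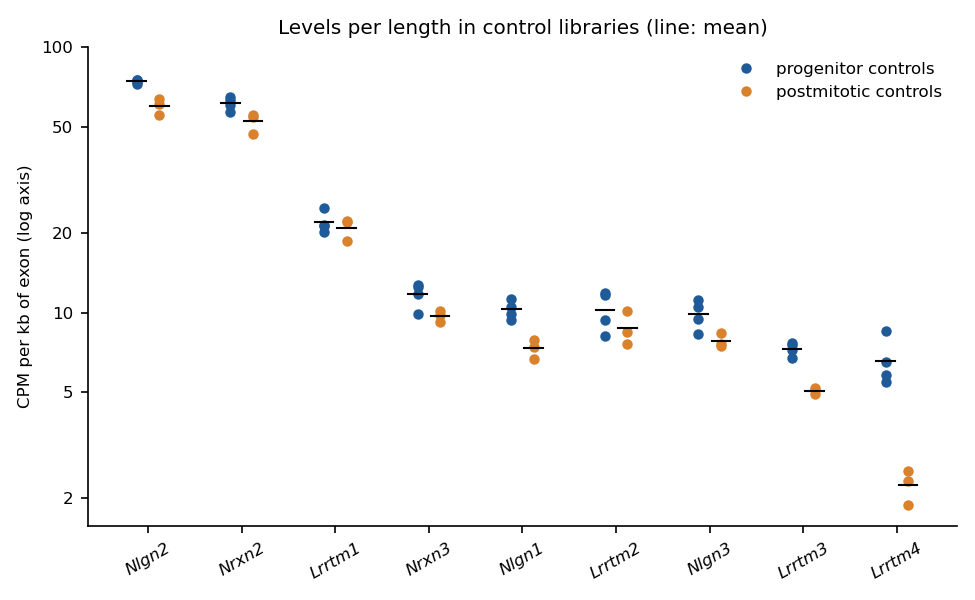
CPM per kilobase of exon (log axis) of the 9 genes in the progenitor controls (blue, 4 libraries) and the postmitotic controls (orange, 3 libraries), with the mean as a line. Nlgn2, Nrxn2 and Lrrtm1 lead in both, and Lrrtm3 and Lrrtm4 are lowest in both.

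Lrrtm1, Lrrtm2 and Lrrtm3 lie inside alpha-catenin genes on the opposite strand. Whether reads were counted by strand is not given here. Lrrtm3 shares 0 exon bases with Ctnna3 and Lrrtm1 shares 0 with Ctnna2, while Lrrtm2 shares 95 with Ctnna1. Ctnna3 had 14, 12, 12 and 23 counts in progenitor controls and 6, 1, 4 and 10 in libraries labelled mutant (-1.32 ± 0.47, adjusted p = 0.0625), and 3 to 8 counts in each postmitotic library, too few to be tested. That is far below the 320 to 936 counts of Lrrtm3. The log2 fold changes of Ctnna3 passed without progenitor library 4 labelled mutant (-1.83, adjusted p = 0.0278). Ctnna2 was at -0.08 ± 0.05 for the progenitor and 0.03 ± 0.06 for the postmitotic comparison, and Ctnna1 at 0.11 ± 0.11 and -0.04 ± 0.09. With edgeR 0 of the 3 host genes passed in the progenitor experiment (1 with an unadjusted p under 0.05, 0 with DESeq2, 1 with limma-voom) and 0 of 2 in the postmitotic one (0 unadjusted and 0 with either other tool). Lrrtm4 shares 1543 exon bases with Gm4409 on the other strand, which had 0 to 3 counts in each postmitotic library. Nlgn3 shares 3823 exon bases with Gm21986 on the same strand, which had 10 to 24 counts in each postmitotic library. On the other strand Nlgn1 shares 1229 with A830092H15Rik, Nrxn2 shares 682 with Slc22a12 and 207 with Gm14964, and Nrxn3 shares 439 with Gm37980. The levels per length above divide by all exon bases, shared ones included.

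The genes most like Lrrtm3 across the 14 libraries, with each experiment centred on its own mean, were Ddn (Pearson r = 0.960), Hspa2 (0.950), Chrm1 (0.948), Fam131a (0.947) and Camk2a (0.946), of 13706 genes ranked. Ddn encodes dendrin, a protein of dendrites and the postsynaptic density, Chrm1 the M1 muscarinic receptor and Camk2a the alpha subunit of CaMKII. All 5 fell in both experiments, by 0.71 ± 0.07 and 0.51 ± 0.07 for Ddn and by 0.81 ± 0.08 and 0.50 ± 0.08 for Camk2a. Because r was taken across both labels, genes chosen for following Lrrtm3 tend to fall with it. Their fall is therefore no separate result. The postmitotic call of Fam131a (adjusted p = 0.0293) was lost when any of 5 of the 6 libraries was left out, all but control 1, with adjusted p up to 0.189. These correlations describe libraries that share depth and label, and Camk2a is also one of the excitatory neuron markers. Among the members Lrrtm4 followed Lrrtm3 most closely (r = 0.82, rank 309), then Nrxn3 (0.68, rank 1090), Lrrtm2 (0.37) and Lrrtm1 (0.33). Nrxn2 was at 0.04, Nlgn1 at -0.06, Nlgn3 at -0.09 and Nlgn2 at -0.18.

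Of 20 genes listed as neurexin partners outside the terminal or as their relatives, 2 rose and 5 fell in the progenitor experiment (35% called, median log2 fold change -0.14). Of all tested genes 23.4% were called there, and 11.4% were called lower. Adgrl2, a latrophilin, rose from 168 ± 15.2 to 287 ± 34.4 CPM (0.77 ± 0.09, adjusted p = 0.000334). Clstn3 fell by 0.28 ± 0.07 (adjusted p = 0.0101) and Clstn1 by 0.24 ± 0.07 (adjusted p = 0.0213), both calsyntenins. The call of Clstn1 was lost without control 2, control 4, mutant 1 or mutant 3 (adjusted p up to 0.0723) and with Y-linked CPM as a covariate (adjusted p = 0.0908). The list's 7 calls became 4 without control 1, 3 without control 4 or mutant 1, and 2 without mutant 3. Of 19 tested in the postmitotic experiment, 1 rose and 1 fell (10.5% called against 1.96% of all tested genes, median 0.08). Adgrl2 rose again, from 229 ± 3.09 to 321 ± 3.05 CPM (0.49 ± 0.06, adjusted p = 0.000606). Tafa1, a secreted neurexin ligand, fell by 0.38 ± 0.09 (adjusted p = 0.0413), a call lost without control 1 or 3 or mutant 1 or 2 (adjusted p up to 0.255). The list's 2 calls became 1 without control 1 or 3 and 4 without mutant 3.

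Of 18 partners and scaffolds of the neuroligins, 3 rose and 6 fell in the progenitor experiment (50% called against 23.4%, median -0.05). Mdga1, which binds neuroligins and keeps neurexins off them, rose from 228 ± 21.6 to 329 ± 33.2 CPM (0.53 ± 0.08, adjusted p = 0.00160). Dlgap3, a scaffold of the postsynaptic density, fell by 0.42 ± 0.07 (adjusted p = 0.00160). In the postmitotic experiment 0 of 18 passed with edgeR (4 with an unadjusted p under 0.05, 0 with DESeq2 and 0 with limma-voom), and 1 did without mutant 3. Of 9 proteins that bind neurexins inside the terminal, Lin7a fell in both experiments, by 0.59 ± 0.10 (adjusted p = 0.00175) and by 1.02 ± 0.18 (adjusted p = 0.0108), the second lost without postmitotic control 2 (adjusted p = 0.0594). No other gene of that list passed with edgeR and all libraries. In the progenitor experiment 1 more passed without control 3 (3712 of 15392 genes in all), and DESeq2 called 2 of the 9 there (3981 of 20798 in all).

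Heparan sulfate, the chain that LRRTM3 and LRRTM4 bind, is made and carried by 24 listed genes. In the progenitor experiment 4 rose and 2 fell (25% called, near the 23.4% of all tested genes, median 0.04). Gpc2, a glypican, rose from 55.8 ± 8.51 to 104 ± 9.42 CPM (0.90 ± 0.11, adjusted p = 0.000397), Hs6st2, a 6-O-sulfotransferase, rose by 0.66 ± 0.06 on the log2 scale (adjusted p = 8.15e-05), and Sdc4, a syndecan, fell by 0.60 ± 0.12 (adjusted p = 0.00466), a call lost with Y-linked CPM as a covariate (-0.32, adjusted p = 0.243). Of the same 24 in the postmitotic experiment, 1 rose and 2 fell (12.5% called against 1.96%, median 0.09). Ndst3, an N-deacetylase and N-sulfotransferase, fell from 12.8 ± 0.672 to 7.40 ± 0.942 CPM (-0.79 ± 0.13, adjusted p = 0.00513). Gpc5 fell by 0.53 ± 0.09 (adjusted p = 0.00861), lost without control 3 (adjusted p = 0.0662). Hs6st2 rose by 0.32 ± 0.06 (adjusted p = 0.0199), lost without any one control or mutant 1 (adjusted p up to 0.119). The 3 calls became 1 without control 3.

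Of 22 other synapse-organising adhesion proteins, 2 rose and 5 fell in the progenitor experiment (31.8% called against 23.4% of all tested genes, median -0.13). Ntrk3, the TrkC receptor, rose by 0.40 ± 0.06 (adjusted p = 0.000745). Slitrk3 fell by 0.40 ± 0.06 (adjusted p = 0.00135), lost with Y-linked CPM as a covariate (adjusted p = 0.0555). Lrrc4c, a netrin-G ligand, fell by 0.35 ± 0.07 (adjusted p = 0.00520). In the postmitotic experiment, where 1.96% of all tested genes passed, 0 of 22 did with edgeR (5 with an unadjusted p under 0.05, 1 with DESeq2, 0 with limma-voom), and 1 did without control 2. Of 10 neuronal splicing regulators, a class that sets which neurexin isoforms are made, 3 rose and 1 fell in the progenitor experiment (40% called against 23.4%, median 0.12): Rbfox2 rose by 0.24 ± 0.06 (adjusted p = 0.0117), Khdrbs3 by 0.27 ± 0.07 (adjusted p = 0.0138) and Ptbp2 by 0.19 ± 0.05 (adjusted p = 0.0139). With Y-linked CPM as a covariate 0 of these 10 passed, where 948 of all 15295 genes did, against 3577 without it. In the postmitotic experiment 0 of 10 passed with edgeR (4 with an unadjusted p under 0.05, 0 with DESeq2 and 0 with limma-voom). Gene-level counts give no measure of splicing.

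**Figure D4:**
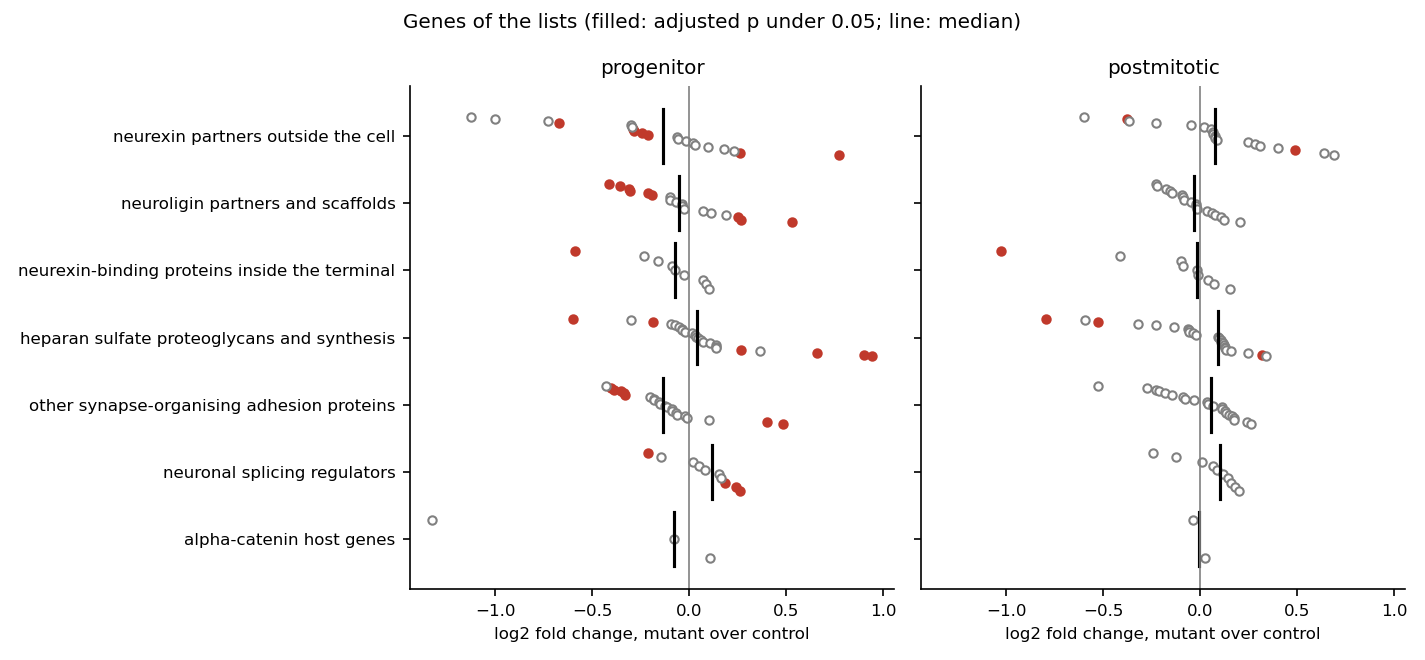
Log2 fold change, libraries labelled mutant over control, of every tested gene of the 7 lists in the progenitor (left) and postmitotic (right) experiment; filled red points have an adjusted p under 0.05 and the black line is the list's median. Filled points are spread on both sides of 0 in the left panel and are few in the right panel, where Lin7a (-1.02) and Adgrl2 (0.49) are the filled points farthest out on either side.

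The authors' deposited tables give values for the same genes. In the progenitor one Lrrtm3 has a log2 fold change of -0.88 (adjusted p = 4.09e-21), Lrrtm4 -0.61 (adjusted p = 0.000165) and Lrrtm2 -0.35 (adjusted p = 0.0276). In the authors' deposited postmitotic table Lrrtm3 has -0.66 (adjusted p = 0.0108) and Lrrtm4 -0.45 (adjusted p = 0.463), from libraries 1 and 2 of each group only. Controls 1 and 2 held 168 and 135 CPM of Y-linked RNA, and libraries 1 and 2 labelled mutant held 0 CPM. Sex and label cannot be told apart in that subset. Lrrtm2 is thus under the threshold in the authors' deposited progenitor table and above it in the test used here.

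**Figure D5:**
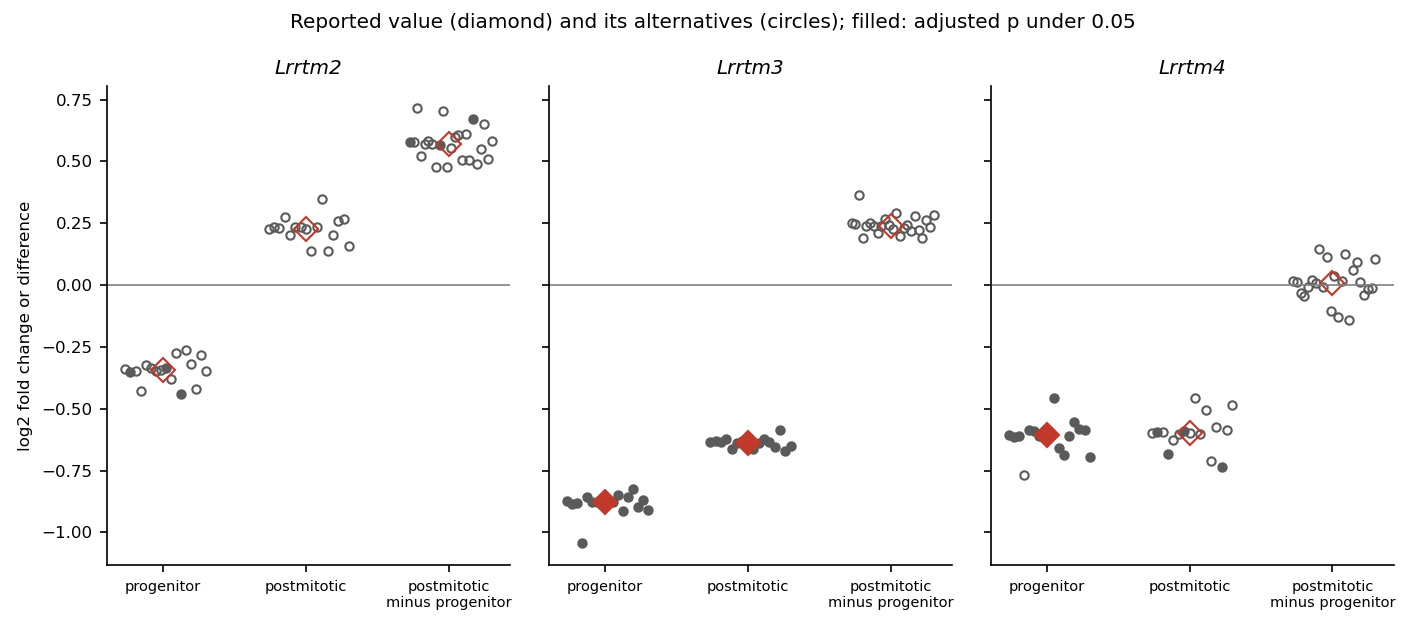
Log2 fold change of Lrrtm2, Lrrtm3 and Lrrtm4 in each experiment and the difference between experiments, as reported (diamond) and under each alternative processing or with each library left out (circles); filled symbols have an adjusted p under 0.05. Lrrtm3 is filled in all 17 progenitor and all 16 postmitotic alternatives, Lrrtm4 in 16 of 17 and 4 of 16, and Lrrtm2 in 3 of 17 and 0 of 16.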

How the data were processed

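The authors deposited 1 table of whole-number read counts per gene symbol for each experiment. The submitters' processing notes name HISAT2, featureCounts, DESeq2 and build mm10; the sources used here give no versions, annotation or strand handling. Per the labels' protocols, libraries were made with a directional NEBNext Ultra II kit and read as pairs of 150 bases. The authors' deposited result tables hold mean counts scaled by size factors (signal), log2 fold changes with SE, a Wald score, p-values and adjusted p-values, per the file headers. Missing values are written there as 0. A least-squares fit of the deposited postmitotic mean counts on the counts gave library 3 of each group a weight of 0, so that table rests on libraries 1 and 2 alone.

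Each count table was tested alone with edgeR 4.0.16 (R 4.3.3): filterByExpr, TMM factors, robust quasi-likelihood fit and F test, Benjamini-Hochberg adjustment over all tested genes, with calls made below 0.05. SEs are the absolute log2 fold change over the root of F, and bounds are 95%. CPM use TMM-scaled library sizes, and exon lengths and positions are those of GENCODE M21 (GRCm38/mm10), matched by symbol for 96.6% and 96.5% of the symbols of the 2 tables. Whether the experiments differ was tested as an interaction term in 1 model of 14 libraries and 24690 shared symbols. Correlations used log2 CPM with a prior count of 2. No pair of replicates agreed within sampling noise (chi-square divided by its degrees of freedom, 6.31 to 19.6). The procedure was tested on simulated counts.

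The members and the 7 gene lists were chosen with earlier results of these data known. Named genes are the 9 members, Lhx2, Neurod6, the 3 alpha-catenin host genes, up to 3 called genes per list and experiment with the smallest p, and the 5 genes most like Lrrtm3. One gene that this rule names is not reported here. Genes named in the flagged results are those of these whose difference between experiments passed. Alternatives were DESeq2 1.42.0, limma-voom (limma 3.58.1), other scaling (RLE, library totals), no filter, no robust step, Y-linked CPM as a covariate, a replicate block, all libraries in 1 fit, postmitotic libraries 1 and 2 alone, and leaving out each library.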

Additional observations from a re-analysis of the deposited data

Results flagged for a closer look

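Of the 33 named genes tested for it, 8 had a log2 fold change that differed between the experiments past the threshold (edgeR interaction test, adjusted p under 0.05), and none of the 9 adhesion genes was among them. Ndst3, the heparan sulfate N-deacetylase and N-sulfotransferase, was called in opposite directions: it rose by 0.94 ± 0.19 in the progenitor experiment (adjusted p = 0.00728) and fell by 0.79 ± 0.13 in the postmitotic one. The difference, postmitotic minus progenitor, was -1.74 ± 0.25 (adjusted p = 0.00101, 0.000160 to 0.00436 with each library left out).

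Gpc2 differed by -1.04 ± 0.20 (adjusted p = 0.00797), from 0.90 in the progenitor to -0.13 ± 0.16 in the postmitotic experiment. Mdga1 differed by -0.68 ± 0.14 (adjusted p = 0.00887), from 0.53 to -0.15 ± 0.09. Dlgap3 differed by 0.53 ± 0.11 (adjusted p = 0.00805), from -0.42 to 0.11 ± 0.08. These 3 kept an adjusted p of at most 0.0315 with each library left out, but with Y-linked CPM as a covariate Gpc2 (adjusted p = 0.0874) and Mdga1 (adjusted p = 0.0930) missed the threshold. Gpc5 differed by -0.49 ± 0.13 (adjusted p = 0.0315), from -0.04 ± 0.09 to -0.53. Hs6st2 differed by -0.34 ± 0.09 (adjusted p = 0.0312), from 0.66 to 0.32, and Clstn3 by 0.34 ± 0.09 (adjusted p = 0.0352), from -0.28 to 0.05 ± 0.06. The calls of Gpc5, Hs6st2 and Clstn3 were each lost on leaving out 1 of several libraries, with adjusted p up to 0.0850, 0.0769 and 0.0874, and were also lost with the Y-linked covariate (adjusted p = 0.0981, 0.128 and 0.119). Neurod6 differed by -1.10 ± 0.26 (adjusted p = 0.0256), from 0.49 ± 0.18 to -0.61, lost without any one postmitotic control or progenitor mutant 1 (adjusted p up to 0.0560) and with the Y-linked covariate (adjusted p = 0.0704). Of the 8 differences 6 were thus lost under that covariate, all but those of Ndst3 and Dlgap3. Among all 15643 genes the calls of the difference went from 1086 to 275 under it. In the 28 groups of 4 libraries of the 9 genes, Lhx2, Neurod6 and the alpha-catenins, no library stood apart from the other 3 by Dixon's ratio.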

How the results depend on the processing

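Of 504 alternative values of the 27 fold changes and differences of the 9 genes, 455 kept direction and side of the threshold, 12 newly passed, 1 no longer passed and 36 changed sign, all in values that had not been called. Lrrtm3 passed in all 17 progenitor (-1.04 to -0.82, adjusted p at most 0.00104) and all 16 postmitotic alternatives (-0.67 to -0.59, adjusted p at most 0.0352). With Y-linked CPM as a covariate 1 progenitor and 2 postmitotic members were called. Of all genes 948 were called in the progenitor experiment, 295 in the postmitotic one and 275 in the difference. DESeq2 called 2 members in the postmitotic experiment and 1 in the difference (Lrrtm2), and 527 and 1650 genes in all. Without a filter 2 members and 723 genes passed in the postmitotic experiment. Leaving out each library gave 2 to 4 progenitor members (4 without control 3) and 2383 to 3712 genes (2383 without mutant 3), 1 to 2 postmitotic members (2 without mutant 1) and 160 to 467 genes, and 0 to 1 members (1 without progenitor control 3) and 598 to 1481 genes for the difference, against 3577, 348 and 1086 as reported. Scaling by library totals moved the difference from 601 lower and 485 higher calls to 786 and 380, and the median of all genes by less than 0.1.

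Same-numbered libraries did not deviate together (r from -0.436 to 0.0931 among progenitor and from -0.196 to 0.0256 among postmitotic libraries), and not every library correlated best with its own number, so the numbers were not taken as pairs. With the replicate block 4 members passed in the progenitor experiment (Lrrtm2, adjusted p = 0.0103, and Nrxn3, adjusted p = 0.0314, besides Lrrtm3 and Lrrtm4), where 3073 of 15295 genes did. In the difference 1 member (Lrrtm2, adjusted p = 0.0324) and 659 of 15643 genes passed with it. The block ended the calls of Ndst3 in the progenitor experiment (0.93, adjusted p = 0.0582), of Lhx2 (0.114), Tafa1 (0.0943), Hs6st2 (0.0933) and Fam131a (0.138) in the postmitotic one, and of the differences of Neurod6 (0.0579), Hs6st2 (0.0868) and Gpc5 (0.0560).

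Sign changes, all in values near 0, were as follows. For Nlgn1 in the progenitor experiment library totals gave 0.018, and left-out libraries -0.043 to 0.048. For Nlgn2 DESeq2 gave -0.0059, RLE scaling -0.0023, the Y-linked covariate -0.014, no filter -0.00084 and left-out libraries -0.016 to 0.017. Left-out libraries gave -0.061 to 0.075 for Nlgn3, -0.015 to 0.080 for Lhx2 and -0.12 to 0.013 for Gpc5. In the postmitotic experiment they gave -0.094 to 0.053 for Lrrtm1, -0.027 to 0.081 for Nlgn3, -0.10 to 0.038 for Ctnna1 and -0.26 to 0.012 for Gpc2, and the Y-linked covariate gave -0.0097 for Nlgn3, 0.016 for Ctnna1 and 0.0099 for Gpc2. For the difference of Lrrtm4 the covariate gave -0.032, library totals -0.042, limma-voom -0.0087, the replicate block -0.0090 and left-out libraries -0.14 to 0.13. For that of Nlgn3 they gave -0.051 with the covariate, -0.030 with library totals and -0.046 to 0.089 with left-out libraries. The cause of these changes was not tested.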
